A study of Homo sapiens with 6 samples.

Results

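Type I interferon-stimulated genes were followed in AALE cells that carried a vector overexpressing NRG1 or a control vector. The 41 genes were taken by symbol from a list of RNA sensors, transcription factors and effectors, and all 41 were found among the 57736 genes of the count table. AALE cells are bronchial basal epithelium that was immortalised with SV40 and hTERT, which all 6 libraries share. In both groups lentivirally transduced cells were selected as stable pools, and polyA RNA was sequenced from 3 NRG1 libraries and 3 control libraries. NRG1 encodes neuregulin, a growth factor that binds ERBB receptors, and the series asks what it does to gene expression in airway epithelial cells. Whether each library had a culture of its own is not in the labels, and the p-values cover the spread among libraries alone, which may be technical.

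Cells sense foreign RNA through receptors such as RIGI and IFIH1 and answer by making type I interferon, which binds the IFNAR1 and IFNAR2 receptor on the same or neighbouring cells. The kinases JAK1 and TYK2 then activate STAT2, which acts with IRF9 in the factor ISGF3. ISGF3 binds the interferon-stimulated response element, ISRE, at promoters of antiviral effector genes. The sensors, STAT2, IRF7 and IRF9 are themselves induced, so that the response can feed forward, while USP18 damps it at the receptor. Epithelial cells are known to hold low levels of these transcripts without added interferon.

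The check of the labels held in every library. NRG1 was at 6647, 3854 and 3781 TMM-scaled CPM in NRG1 1 to 3, against 11.6, 7.87 and 12.3 CPM in control 1 to 3 (log2 fold change 8.80, SE 0.38, adjusted p = 0.00012 by edgeR), and it was the 1 gene of 15421 that passed. Total expected counts ran from 8612234 in NRG1 1 to 13207620 in control 3, so that 10 CPM rested on 81 to 130 counts. NRG1 1 and control 3 stood apart from the other libraries. The first principal component, with 44.5% of the variance, set control 3 at 79.3. On it NRG1 2 and NRG1 3 lay together at -41.3 and -40.5. NRG1 1, at -0.9, lay beside control 1 at 4.2 and control 2 at -0.7. The second component, with 27.3%, set NRG1 1 at -65.4 and the others between -7.5 and 23.2. Airway basal cell markers (TP63, KRT5, KRT14, KRT17, ITGA6, ITGB4, NGFR) were all detected and summed to 5646 to 7040 CPM in NRG1 libraries and 8676 to 12566 CPM in controls. Their log2 fold changes differed, at 0.09 for TP63, 0 for ITGA6, -0.46 for ITGB4 and -0.51 for KRT5. KRT17 was at -1, KRT14 at -2.45 and NGFR at -3.05. The NGFR value rested largely on control 3, with 15.2, 15.7 and 13.6 CPM in NRG1 1 to 3, against 18.3, 46.8 and 302 CPM in control 1 to 3. Without NRG1 1 and control 3 the log2 fold change of NGFR was -1.14. Of 8 leukocyte markers CD3E was at 0 in all 6 libraries, and the list summed to 17.0 to 29.9 CPM in NRG1 libraries and 23.0 to 36.0 CPM in controls. CD68, CD14 and CD74 held nearly all of that sum and differed in direction, with log2 fold changes of -1.17, 0.83 and 1.68. The plasmacytoid dendritic cell markers CLEC4C and LILRA4 were at 0 in all 6 libraries, and that list of 4 summed to 6.84 to 13.5 CPM in NRG1 libraries and 5.87 to 12.5 CPM in controls. TCF4 held nearly all of it, with a log2 fold change of 0.1. The 6 fibroblast markers summed to 20.1 to 28.1 CPM in NRG1 libraries and 42.4 to 67.6 CPM in controls. The part of these markers in the results was not tested.

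Promoter sequence shows what the genes share. Of the 41 genes, 32 had an entry in the RefSeq promoter table (GRCh38.p14, 250 bases before to 50 after each gene's start), and 8 of these had several listed starts, of which the first is used here. An ISRE-like pattern, GAAA and GAAA with any 2 bases between them, searched on both strands, was found at the first listed start of 21 of these 32 genes, 65.6%, against 3.65% of 27305 genes. Counted at any listed start it was in 23 of 32, 71.9%, against 4.38%. The letters TTCNNNGAA, a GAS-like pattern of another interferon response element, reading the same on both strands, were found at the first listed start in 9 of 32, 28.1%, against 7.88% of all genes, and at any listed start in 10 of 32, 31.2%, against 9.38%. Matches of both patterns can overlap each other. The 120 bases before the start are shown for 7 genes whose levels are described below, with ISRE-like matches in capitals; ISG15, DDX60, IFI44 and RIGI were lower in all NRG1 libraries, and DDX60L, IFI27 and IFIT1 overlapped between the groups. The stretches are chr1:1013377-1013496 (plus strand) for ISG15, chr4:168318753-168318872 (minus strand) for DDX60, chr4:168480493-168480612 (minus strand) for DDX60L, chr1:78649669-78649788 (plus strand) for IFI44, chr14:94110616-94110735 (plus strand) for IFI27, chr10:89392503-89392622 (plus strand) for IFIT1 and chr9:32526197-32526316 (minus strand) for RIGI.
ISG15: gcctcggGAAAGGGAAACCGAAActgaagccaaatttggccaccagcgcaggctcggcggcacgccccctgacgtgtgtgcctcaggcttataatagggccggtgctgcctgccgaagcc
DDX60: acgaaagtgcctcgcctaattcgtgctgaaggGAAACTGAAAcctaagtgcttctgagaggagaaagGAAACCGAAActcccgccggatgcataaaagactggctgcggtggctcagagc
IFI44: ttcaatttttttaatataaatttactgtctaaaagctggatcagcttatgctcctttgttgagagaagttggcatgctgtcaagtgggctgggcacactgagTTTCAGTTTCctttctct
RIGI: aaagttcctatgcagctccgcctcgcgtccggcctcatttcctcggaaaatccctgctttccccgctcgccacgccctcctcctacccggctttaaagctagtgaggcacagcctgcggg
DDX60L: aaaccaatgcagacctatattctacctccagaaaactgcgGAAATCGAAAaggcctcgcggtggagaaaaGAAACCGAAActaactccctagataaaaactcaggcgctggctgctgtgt
IFI27: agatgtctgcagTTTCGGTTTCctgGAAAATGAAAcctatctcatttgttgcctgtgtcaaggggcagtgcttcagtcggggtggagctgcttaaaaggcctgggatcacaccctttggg
IFIT1: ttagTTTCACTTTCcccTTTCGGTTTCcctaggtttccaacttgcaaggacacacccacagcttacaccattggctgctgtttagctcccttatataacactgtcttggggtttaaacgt
The neighbours DDX60 and DDX60L, both on chromosome 4, each had 2 separate matches in this window, ISG15 had 2 that overlap, and the RIGI window held none of these letters. At the first listed start, ISRE-like matches were in 6 of the 9 promoters of genes that were lower in all NRG1 libraries and in 15 of the 23 of genes whose groups overlapped. A match is a description of sequence, and binding was not measured.

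Of the 41 interferon-stimulated genes 0 passed the edgeR test between NRG1 and control libraries. In 14 of the 41 genes, 34.1%, all 3 NRG1 libraries lay below all 3 controls, in 0 genes all lay above, and in 27 the groups overlapped; over the 15421 genes tested the shares were 10.2% and 9.36%. The fitted log2 fold change of NRG1 over control was below 0 in 33 of 41 genes, against 50% of all genes tested. Its median was -0.64 over the 41 genes and 0 over all genes tested, and without control 2 it was -0.34. Of the 41, 38 reached the level of the low-count filter in every library. CMPK2 reached it in the 3 control libraries alone, where it was higher. IFITM1 and BST2 reached it in all 3 controls, where they were higher on average, and in 2 NRG1 libraries. The direction of CMPK2, IFITM1 and BST2 is therefore no support. All 3 genes are kept in the counts and the median of this paragraph, and CMPK2 is among the 14 genes. At an adjusted p of 0.05 (edgeR quasi-likelihood fit, Benjamini-Hochberg over all genes) 0 of the 41 passed; of all genes 0.00648% passed, with 0% as lower and 0.00648% as higher. The unadjusted p was below 0.05 in 15 of the 41 as lower and in 0 as higher, against 6.72% and 5.07% of all genes, 11.8% in both directions. DESeq2 called 6 of the 41 as lower (RIGI, DHX58, OASL, IFI44, RSAD2 and HERC5) and 0 as higher, against 0.759% and 0.597% of all genes, 1.36% in both directions. In bulk RNA, fewer cells that express a gene and less RNA per cell cannot be told apart.

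Comparison without NRG1 1 and control 3, chosen because these libraries stood apart, gave more calls. NRG1 2 and NRG1 3 both lay below control 1 and control 2 in 24 of the 41 genes, against 28.8% of all genes. Control 3 was the lowest control in 30 of the 41 genes, against 6237 of 15421 genes tested. Its omission raised the control level in those genes. NRG1 1 was the lowest NRG1 library in 28 of the 41, against 43.5% of all genes, and its omission raised the NRG1 level there. With these 4 libraries edgeR called 9 of the 41 as lower (RIGI, DHX58, OAS2, OASL, IFIT1, IFIT2, IFIT3, HERC5 and IFI44) and PARP14 as higher, against 4.77% and 5.04% of all genes, 9.8% in both directions. Leaving out libraries for their distance lowers the spread within groups, so these p-values are too small by an unknown amount. Without NRG1 1 alone edgeR called 0 of the 41, against 0.24% of all genes, with 0.0648% as lower and 0.175% as higher.

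**Figure D1:**
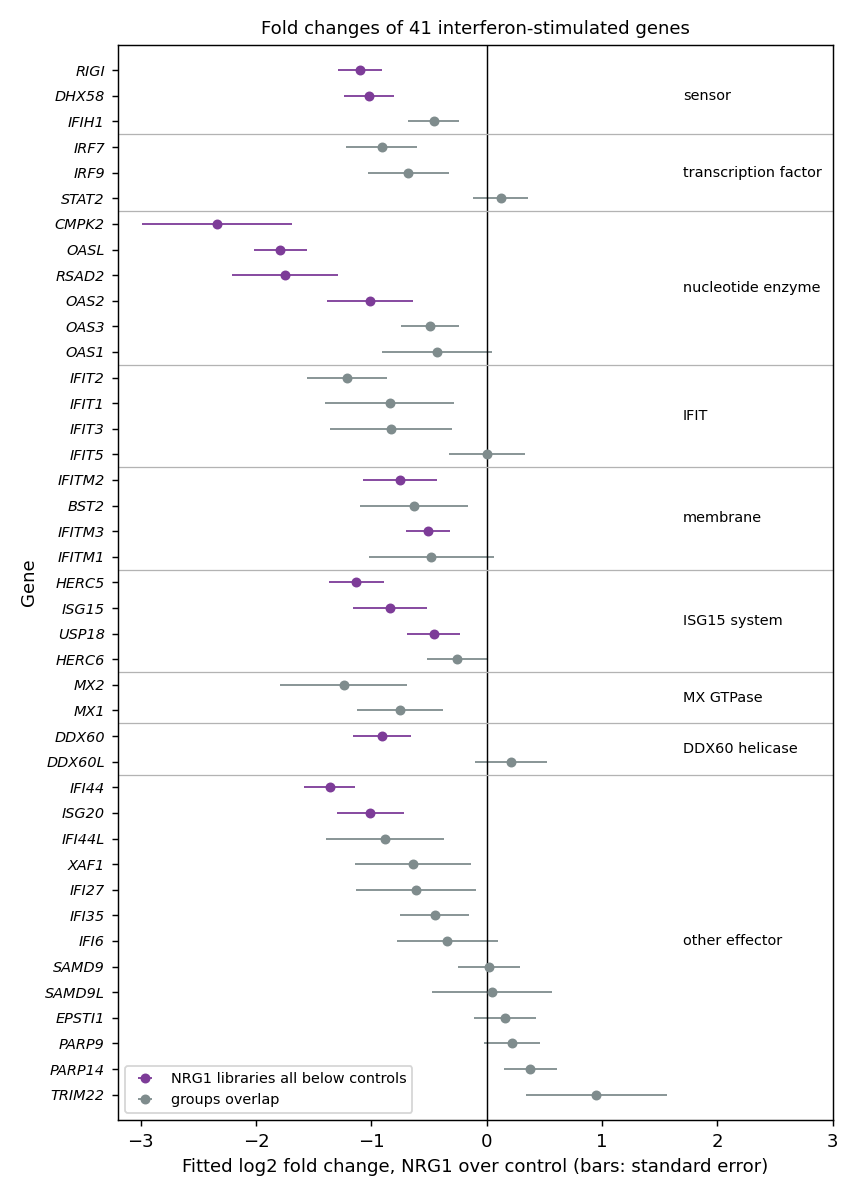
Fitted log2 fold change of NRG1 over control (x axis) with its standard error for the 41 genes, grouped by role (y axis). Of the points, 14 stand for genes whose NRG1 libraries all lay below the controls, and they run from -2.34 for CMPK2, which passed the low-count filter through its control libraries alone, to -0.46 for USP18.

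The 3 RNA sensors divided into RIGI and DHX58, with separate groups, and IFIH1, with overlapping ones. RIGI (ENSG00000107201, chromosome 9), which recognises short RNA with a 5′ triphosphate, was at 34.1, 33.3 and 34.6 CPM in NRG1 1 to 3, against 64.8, 90.1 and 63.9 CPM in control 1 to 3. The NRG1 libraries lay close together and far below the lowest control. The log2 fold change was -1.10 (SE 0.19, adjusted p = 0.184 by edgeR). DHX58 (ENSG00000108771, chromosome 17), a regulator of both other sensors, was at 9.02, 10.7 and 9.55 CPM in NRG1 1 to 3, against 19.0, 21.8 and 18.7 CPM in control 1 to 3. The groups did not overlap, and the spread within each was small beside the gap (log2 fold change -1.02, SE 0.22, adjusted p = 0.258 by edgeR). IFIH1 (ENSG00000115267, chromosome 2), the sensor of long double-stranded RNA known as MDA5, was at 20.8, 25.8 and 28.8 CPM in NRG1 1 to 3, against 27.8, 40.2 and 35.7 CPM in control 1 to 3. NRG1 3 lay above control 1, so the groups overlapped (log2 fold change -0.46, SE 0.22, adjusted p = 0.453 by edgeR). A two-sided exact permutation test gave p = 0.1 for RIGI and DHX58, the smallest that 3 against 3 libraries allow, and the same holds for every gene with separate groups.

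The transcription factors did not separate the groups. STAT2 (ENSG00000170581, chromosome 12), the ISGF3 subunit that carries the activation domain, was at 53.6, 86.4 and 84.3 CPM in NRG1 1 to 3, against 73.7, 79.1 and 53.9 CPM in control 1 to 3. The lowest libraries were NRG1 1 and control 3 (log2 fold change 0.12, SE 0.24, adjusted p = 0.85 by edgeR; -0.034 without control 3). IRF9 (ENSG00000213928, chromosome 14), the DNA-binding subunit, was at 20.9, 49.7 and 43.4 CPM in NRG1 1 to 3, against 44.9, 83.8 and 54.6 CPM in control 1 to 3. NRG1 1 was below all others, and NRG1 2 was above control 1 (log2 fold change -0.68, SE 0.35, adjusted p = 0.466 by edgeR). In GENCODE 29 another protein-coding gene on the same strand overlaps 48.4% of its exonic bases, which makes its count uncertain. IRF7 (ENSG00000185507, chromosome 11), which drives interferon genes, was at 20.9, 30.1 and 26.9 CPM in NRG1 1 to 3, against 28.5, 62.2 and 56.7 CPM in control 1 to 3. Control 1 lay inside the NRG1 range (log2 fold change -0.91, SE 0.31, adjusted p = 0.358 by edgeR). The IRF9 value was -0.38 without control 2 and -0.39 without NRG1 1, and that of STAT2 ran up to 0.31 without NRG1 1.

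The medians by role put this side by side. Relative to the control mean on the log2(CPM + 0.25) scale, the median of the 3 sensors was -1.07, -0.88 and -1.03 in NRG1 1 to 3, and -0.15, 0.23 and -0.08 in control 1 to 3. For the 3 transcription factors it was -1.14, -0.25 and -0.44 in NRG1 1 to 3, and -0.39, 0.42 and -0.11 in control 1 to 3. For the 35 effectors it was -0.91, -0.39 and -0.45 in NRG1 1 to 3, and -0.07, 0.49 and -0.40 in control 1 to 3. The sensor medians of the groups did not overlap, while those of factors did. Effector medians overlapped by a narrow margin, with NRG1 2 at -0.39 and control 3 at -0.40. Differences between these roles were not tested.

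**Figure D2:**
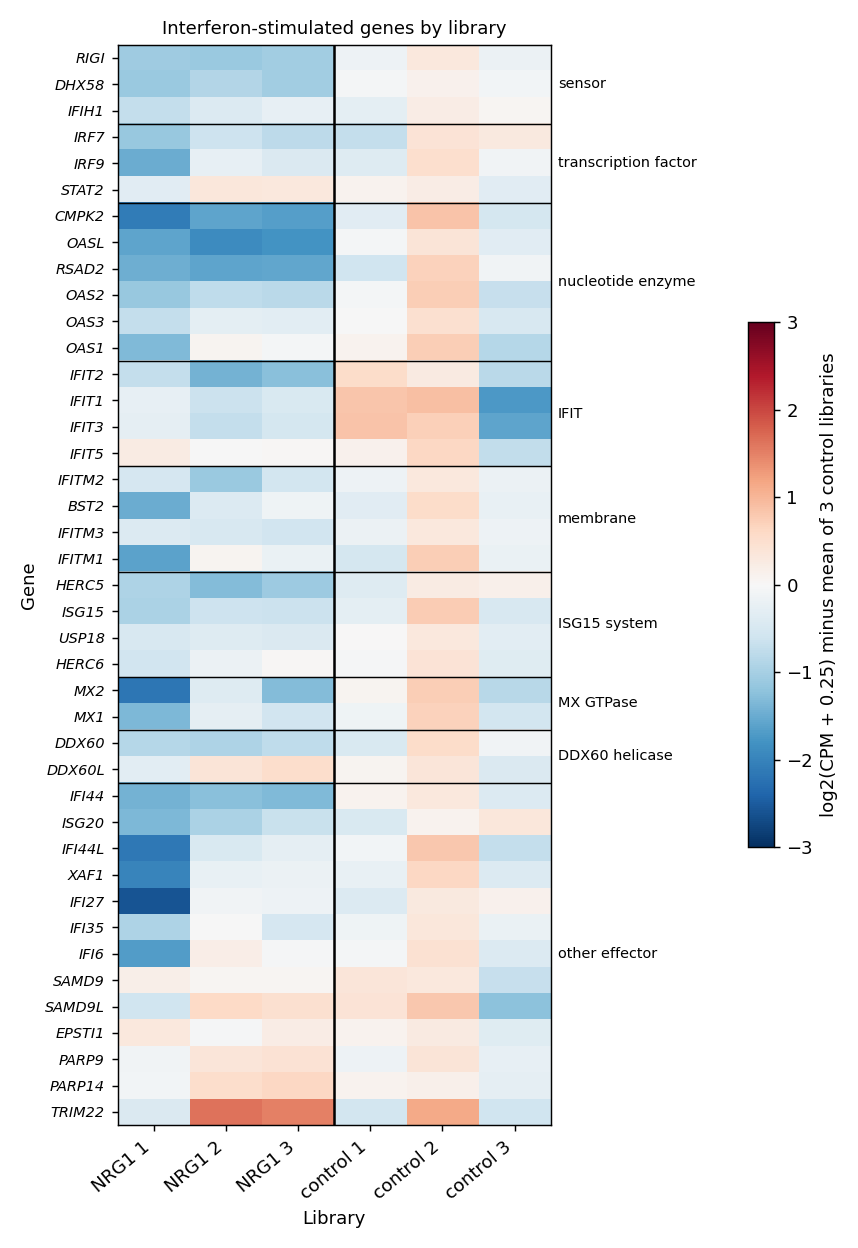
Level of each of the 41 genes (rows, grouped by role) in each library (columns) as log2(CPM + 0.25) minus the mean of the 3 controls; blue is lower and red higher. The columns of NRG1 1 and control 2 carry most of the darkest blue and of the red, and RIGI, DHX58, OASL and IFI44 are blue in all 3 NRG1 libraries.

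Among genes that act on nucleotides and RNA, 4 of 6 had all NRG1 libraries below the controls, against 10.2% of all genes tested. The 4 include CMPK2, which passed the low-count filter through its controls alone and is no support. OASL (ENSG00000135114, chromosome 12), a member of the oligoadenylate synthetase family that lacks its enzyme activity and supports RIGI signalling, was at 22.5, 18.2 and 19.4 CPM in NRG1 1 to 3, against 65.6, 89.1 and 53.5 CPM in control 1 to 3. The highest NRG1 library lay far below the lowest control. With a log2 fold change of -1.79 (SE 0.23) OASL had the smallest p of the 41 genes, and its adjusted p was 0.0902 by edgeR, with 3.55e-08 to 0.648 over the alternatives. RSAD2 (ENSG00000134321), whose product viperin makes a chain-terminating nucleotide, was at 1.73, 1.59 and 1.63 CPM in NRG1 1 to 3, against 3.39, 8.68 and 4.86 CPM in control 1 to 3. CMPK2 (ENSG00000134326), a mitochondrial nucleotide kinase and the head-to-head neighbour of RSAD2 on chromosome 2, rested on 2, 5 and 4 expected counts in NRG1 1 to 3, against 18, 36 and 16 in control 1 to 3. Both were low throughout but lower in every NRG1 library, with log2 fold changes of -1.75 (SE 0.46) for RSAD2 and -2.34 (SE 0.65) for CMPK2 and adjusted p-values of 0.326 and 0.329 by edgeR. CMPK2 was below the low-count filter in all 3 NRG1 libraries and was tested because of its controls, so that it had to differ. OAS2 (ENSG00000111335), an enzyme that makes the 2-5A messenger of RNase L, was at 11.6, 15.1 and 14.7 CPM in NRG1 1 to 3, against 24.7, 43.3 and 16.0 CPM in control 1 to 3. Control 3 lay just above the NRG1 range (log2 fold change -1.01, SE 0.37). OAS1 and OAS3, enzymes of the same family on chromosome 12, overlapped between groups, with log2 fold changes of -0.43 (SE 0.48) and -0.49 (SE 0.25). OAS1 was at 5.19, 14.3 and 12.8 CPM in NRG1 1 to 3, against 14.5, 22.5 and 7.33 CPM in control 1 to 3, so that NRG1 1 and control 3 were its lowest libraries. Without control 2 the log2 fold change was -0.56 for OAS2 and -0.0044 for OAS1, and without NRG1 1 it was -0.11 for OAS1.

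The IFIT genes, whose proteins bind foreign RNA caps and ends, differed widely among the controls. IFIT2 (ENSG00000119922, chromosome 10) was at 54.1, 32.9 and 36.9 CPM in NRG1 1 to 3, against 129, 107 and 50.3 CPM in control 1 to 3. NRG1 1 and control 3 overlapped by a narrow margin (log2 fold change -1.21, SE 0.35, adjusted p = 0.332 by edgeR; -1.76 without NRG1 1 and control 3). IFIT1 was at 34.7, 26.3 and 30.3 CPM in NRG1 1 to 3, against 73.8, 77.9 and 12.4 CPM in control 1 to 3. IFIT3 followed it, with 36.6, 26.9 and 30.7 CPM in NRG1 1 to 3, against 80.4, 72.8 and 14.5 CPM in control 1 to 3. In both genes control 3 was the lowest of all libraries and the other controls the highest, and the log2 fold changes were -0.84 (SE 0.56) and -0.83 (SE 0.53). IFIT5 was at 30.0, 25.2 and 25.9 CPM in NRG1 1 to 3, against 27.6, 38.9 and 15.1 CPM in control 1 to 3, and its sign changed between settings.

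The ISG15 system was taken as a ubiquitin-like protein, its ligase HERC5, the HERC5 neighbour HERC6 and a protease. In 3 of these 4 genes all NRG1 libraries lay below the controls, against 10.2% of all genes tested. ISG15 (ENSG00000187608, chromosome 1) was at 41.8, 52.5 and 52.4 CPM in NRG1 1 to 3, against 67.0, 139 and 58.4 CPM in control 1 to 3. Its groups lay close at control 3 and far apart at control 2 (log2 fold change -0.84, SE 0.32, adjusted p = 0.391 by edgeR). HERC5 (ENSG00000138646, chromosome 4), the main ligase for ISG15, was at 22.7, 17.3 and 20.2 CPM in NRG1 1 to 3, against 32.7, 51.4 and 47.6 CPM in control 1 to 3. The gap between the groups was wider than the spread within the NRG1 group (log2 fold change -1.13, SE 0.24, adjusted p = 0.24 by edgeR). USP18 (ENSG00000184979, chromosome 22), the protease that removes ISG15 and the feedback inhibitor at the receptor, was at 16.3, 17.2 and 16.6 CPM in NRG1 1 to 3, against 22.8, 28.3 and 18.1 CPM in control 1 to 3. The difference was smaller than for ISG15 or HERC5 in fitted size, with a log2 fold change of -0.46 (SE 0.23). HERC6, the neighbour of HERC5, was at 21.6, 28.7 and 33.1 CPM in NRG1 1 to 3, against 31.6, 43.1 and 25.3 CPM in control 1 to 3, with overlap. Without control 2 the log2 fold change was -0.36 for ISG15, -0.29 for USP18 and -0.031 for HERC6, against -0.26 for HERC6 with it, and without NRG1 1 it was -0.11 for HERC6.

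Of the 4 membrane effectors, IFITM2 and IFITM3 had all NRG1 libraries below the controls, against 10.2% of all genes tested. IFITM3 (ENSG00000142089, chromosome 11), which blocks virus entry from endosomes, was at 50.9, 48.3 and 45.3 CPM in NRG1 1 to 3, against 60.5, 84.5 and 61.0 CPM in control 1 to 3. IFITM2, its close copy, was at 5.32, 3.36 and 5.10 CPM in NRG1 1 to 3, against 6.85, 9.49 and 6.72 CPM in control 1 to 3. The log2 fold changes were -0.51 (SE 0.19) for IFITM3 and -0.75 (SE 0.32) for IFITM2. In GENCODE 29 a noncoding gene on the opposite strand overlaps 21.3% of the exonic bases of IFITM3, so its count may hold other reads. IFITM1 was at 0.865, 3.36 and 2.71 CPM in NRG1 1 to 3, against 2.10, 5.45 and 2.70 CPM in control 1 to 3, with overlap. Since the 3 genes are close copies and IFITM1 and IFITM2 share exonic bases in GENCODE 29, their counts are uncertain one by one; summed as 1 feature they had a log2 fold change of -0.53 and an adjusted p of 0.37 by edgeR. BST2, the tether of budding viruses, was below 5 CPM in all 6 libraries and overlapped. Without control 2 the log2 fold change was -0.33 for IFITM3 and -0.011 for IFITM1, and without NRG1 1 it was -0.13 for IFITM1, against -0.48 in all libraries.

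Of the MX and DDX60 pairs, DDX60 alone had separate groups. DDX60 (ENSG00000137628), a helicase linked to RNA sensing, was at 81.0, 77.1 and 86.5 CPM in NRG1 1 to 3, against 108, 216 and 136 CPM in control 1 to 3 (log2 fold change -0.91, SE 0.25, adjusted p = 0.331 by edgeR). Its neighbour DDX60L was at 13.1, 21.5 and 23.9 CPM in NRG1 1 to 3, against 17.3, 21.3 and 12.1 CPM in control 1 to 3 (log2 fold change 0.21, SE 0.31). The promoters shown above hold the ISRE-like letters in both. MX1, a GTPase that traps viral nucleocapsids, was at 20.8, 44.0 and 35.3 CPM in NRG1 1 to 3, against 48.3, 85.4 and 35.8 CPM in control 1 to 3. MX2, its relative on chromosome 21, was at 1.36, 5.33 and 2.71 CPM in NRG1 1 to 3, against 7.50, 11.9 and 3.86 CPM in control 1 to 3. Both were highest in control 2 and lowest in NRG1 1, and control 3 lay inside the NRG1 range. Their log2 fold changes were -0.75 (SE 0.37) for MX1 and -1.24 (SE 0.55) for MX2. Without control 2 the log2 fold change was -0.58 for DDX60, 0.41 for DDX60L, -0.33 for MX1 and -0.81 for MX2; that of DDX60L was 0.43 without NRG1 1 and 0.015 without control 3.

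Of the 13 other effectors, IFI44 and ISG20, 15.4%, had all NRG1 libraries below the controls, near the 10.2% of all genes tested. Of these 13, 6 had a log2 fold change above 0. IFI44 (ENSG00000137965, chromosome 1), a cytoplasmic protein with antiviral and antiproliferative roles, was at 27.3, 30.5 and 29.2 CPM in NRG1 1 to 3, against 78.8, 90.5 and 54.5 CPM in control 1 to 3. The NRG1 libraries were tightly grouped and the controls spread more widely above them (log2 fold change -1.36, SE 0.22, adjusted p = 0.166 by edgeR). ISG20 (ENSG00000172183, chromosome 15), an RNA exonuclease, was at 9.89, 13.2 and 16.1 CPM in NRG1 1 to 3, against 18.8, 27.6 and 32.7 CPM in control 1 to 3 (log2 fold change -1.01, SE 0.29, adjusted p = 0.332 by edgeR). Unlike most of the 41 genes, ISG20 had its highest level in control 3. TRIM22, an antiviral ubiquitin ligase, had the highest fitted log2 fold change of the 41 genes, 0.95 (SE 0.61, adjusted p = 0.549 by edgeR), and was at 12.0, 51.2 and 47.2 CPM in NRG1 1 to 3, against 11.1, 36.1 and 10.8 CPM in control 1 to 3. NRG1 1 lay level with control 1 and control 3, and control 2 was well above them. In GENCODE 29 another gene on the same strand overlaps 10.7% of its exonic bases, so its count may hold other reads. The TRIM22 value was 1.75 without control 2, and that of ISG20 was -0.66 without NRG1 1 and control 3. PARP14 and PARP9, ADP-ribosyltransferase family members on chromosome 3, SAMD9, SAMD9L and EPSTI1 had log2 fold changes between 0.02 and 0.38 and overlapped. Without NRG1 1 and control 3 the values were -0.29 for SAMD9, -0.08 for SAMD9L and -0.09 for EPSTI1. PARP14 and PARP9 stayed above 0, at 0.45 and 0.25. PARP14 was at 69.6, 108 and 115 CPM in NRG1 1 to 3, against 80.2, 83.1 and 61.3 CPM in control 1 to 3. IFI35 overlapped too, with a log2 fold change of -0.45 (SE 0.30).

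**Figure D3:**
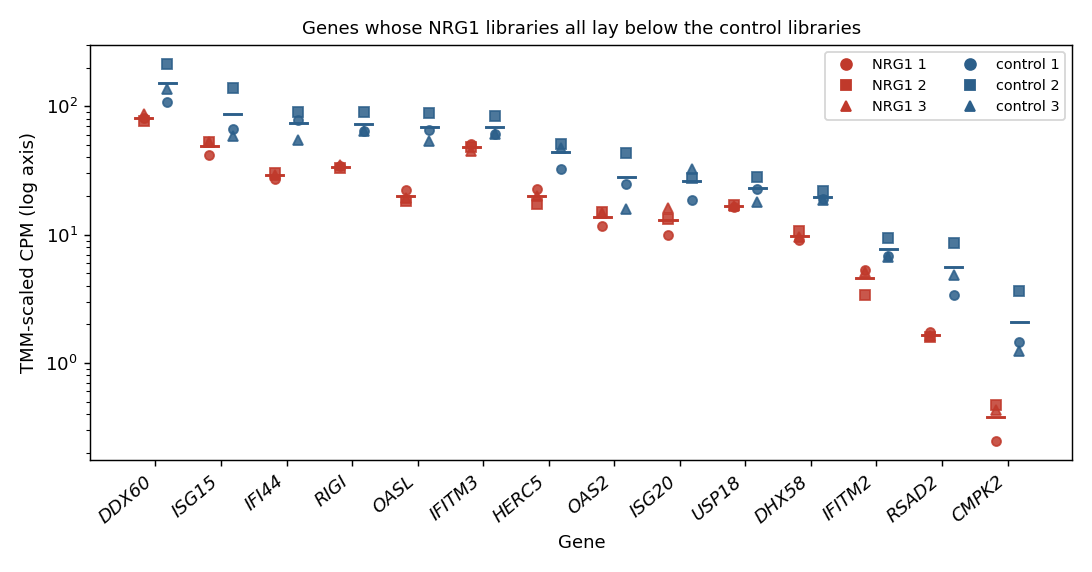
TMM-scaled CPM on a log axis of the 14 genes whose NRG1 libraries all lay below the controls, with 1 point per library and a bar at each group's mean; NRG1 stands left of control for each gene. Control 2, drawn as a square, is the highest library in all of these genes except ISG20.

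Many interferon-stimulated genes shared an order of libraries within the groups. Control 2 held the highest level in 31 of the 41 genes, 75.6%, against 10.7% of all genes tested. NRG1 1 held the lowest in 23 of 41, 56.1%, against 22.7% of all genes. Both were true of the same gene in 21 of 41, against 3.11% of all genes. Within their own groups, control 2 was above the other controls in 37 of 41, against 29.2% of all genes, and NRG1 1 below the other NRG1 libraries in 28 of 41, against 43.5%. Control 3 was below control 1 and control 2 in 30 of 41, against 6237 of the 15421 genes tested. The 41 genes summed to 1032, 1341 and 1343 CPM in NRG1 1 to 3, against 1721, 2387 and 1350 CPM in control 1 to 3. Control 3 thus lay level with NRG1 2 and NRG1 3 in the sum, and control 1 and control 2 lay above all other libraries. IFI27, a mitochondrial protein widely used as a marker of interferon exposure, was at 4.57, 26.6 and 25.6 CPM in NRG1 1 to 3, against 21.5, 35.0 and 31.2 CPM in control 1 to 3. IFI6, its relative, was at 15.6, 57.6 and 48.4 CPM in NRG1 1 to 3, against 47.6, 69.2 and 37.8 CPM in control 1 to 3. For XAF1, a pro-apoptotic protein, the values were 1.48, 5.61 and 5.86 CPM in NRG1 1 to 3, against 5.64, 10.3 and 4.94 CPM in control 1 to 3, with 38.3% of its exonic bases overlapped by a gene on the opposite strand. IFI44L was at 7.79, 25.8 and 29.2 CPM in NRG1 1 to 3, against 33.2, 61.8 and 21.5 CPM in control 1 to 3. In these 4 genes NRG1 1 was far below the other NRG1 libraries, which lay inside the control range. NRG1 1 was the shallowest library, had 21570 genes above 0 against 22793 to 23757 in the others, and had the highest NRG1 level; the part of these in the result was not tested.

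**Figure D4:**
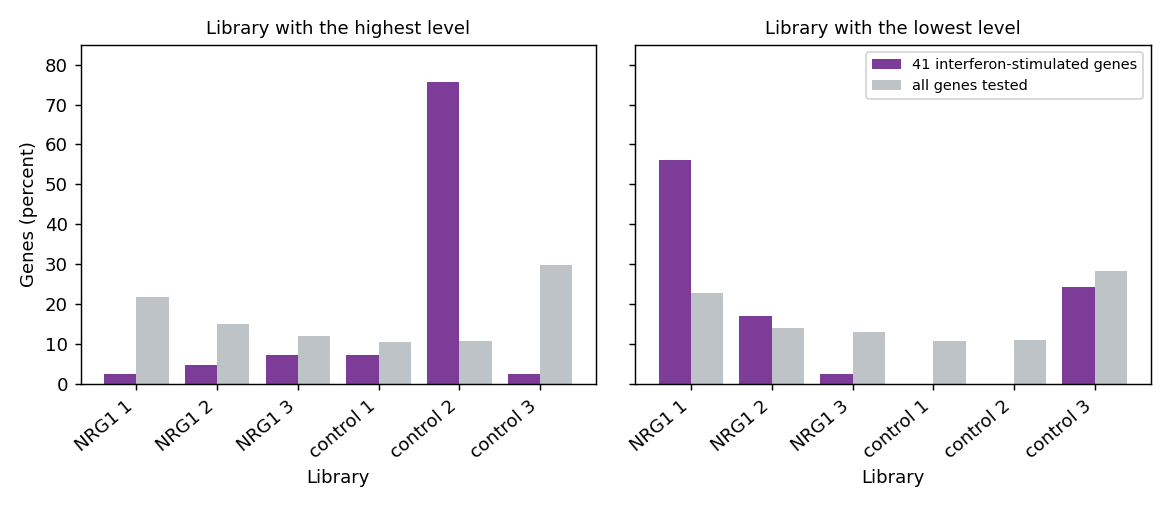
Share of genes (percent) whose highest level, left panel, or lowest level, right panel, fell in each library, for the 41 genes (purple) and for all genes tested (grey). Control 2 holds the highest level of 75.6% of the 41 genes and NRG1 1 the lowest level of 56.1%.

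On a scale corrected for length, the most abundant of the 41 transcripts was ISG15. Per kilobase of exonic bases in GENCODE 29, its mean was 52.0 CPM in NRG1 and 93.5 CPM in control. IFI6 came next, with 46.8 and 59.6 CPM per kilobase in NRG1 and control, then IFITM3 with 35.7 and 50.9, and in control IFI44 with 14.2 and 36.6. The lowest were CMPK2, at 0.0890 CPM per kilobase in NRG1 and 0.490 in control, and MX2, at 0.240 in NRG1 and 0.594 in control. The length joins all exons listed for a gene, 13047 bases for MX2. It can exceed that of the transcripts present, so this order is uncertain. In plain CPM the MX2 means, 3.13 in NRG1 and 7.75 in control, lay above those of RSAD2, 1.65 and 5.64. Detection of genes such as CMPK2, MX2, IFITM1 and BST2 rested on few reads, so that counting error adds to their spread.

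Other genes of the pathway were followed from a list of 76 genes in the count table, of which 52 were tested. Adjusted over all genes, 0 of the 52 passed in edgeR; 5 of 52 had an unadjusted p below 0.05, all of them lower, against 6.72% of all genes, and 2, HELZ2 and GBP1, passed in DESeq2 as lower, against 0.759% of all genes. In 10 of the 52 all NRG1 libraries lay below all controls, against 10.2% of all genes, and in 1 above, against 9.36%. The median log2 fold change was -0.13. Interferon genes themselves were almost silent: of 21 listed, 10 were at 0 in all libraries and 0 were tested. IFNL1, a type III interferon of epithelia, had 0 expected counts in each NRG1 library, where a count of 0 allows up to 3, and 2, 8 and 2 in control 1 to 3. IFNE, an epithelial interferon, had 3, 18 and 9 expected counts in NRG1 1 to 3, against 12.1, 4 and 3 in control 1 to 3, and IFNB1 had 1, 3 and 0 in NRG1 1 to 3, against 0, 0 and 3 in control 1 to 3.

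Among receptors and kinases, TYK2 was at 72.8, 111 and 96.3 CPM in NRG1 1 to 3, against 132, 142 and 162 CPM in control 1 to 3 (log2 fold change -0.64, SE 0.19, adjusted p = 0.335 by edgeR). IFNLR1, the receptor chain for type III interferons, was at 16.7, 19.99 and 15.1 CPM in NRG1 1 to 3, against 20.8, 25.8 and 50.3 CPM in control 1 to 3. Both had separate groups, and both were highest in control 3, as was 1 of the 41 genes, ISG20. Among other interferon targets, GBP1, a guanylate-binding protein induced mainly by interferon gamma, was at 7.91, 5.79 and 6.62 CPM in NRG1 1 to 3, against 11.5, 22.6 and 29.8 CPM in control 1 to 3. Its relative GBP3 was at 14.8, 11.0 and 11.9 CPM in NRG1 1 to 3, against 17.4, 21.0 and 18.4 CPM in control 1 to 3. HELZ2, a helicase and nuclear receptor coactivator, was at 46.5, 87.4 and 78.6 CPM in NRG1 1 to 3, against 115, 183 and 237 CPM in control 1 to 3. The log2 fold changes were -1.66 (SE 0.38) for GBP1, -0.59 (SE 0.23) for GBP3 and -1.33 (SE 0.31) for HELZ2. Without NRG1 1 and control 3 the log2 fold change was -0.84 for HELZ2, -0.40 for TYK2 and -0.40 for IFNLR1, and without control 3 alone it was -0.44 for IFNLR1, against -0.91 (SE 0.35) in all libraries. ZC3HAV1, the zinc-finger antiviral protein, was at 109, 113 and 109 CPM in NRG1 1 to 3, against 145, 134 and 131 CPM in control 1 to 3, a small difference with little spread in either group (log2 fold change -0.31, SE 0.14).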

How the data were processed

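PolyA RNA of 3 NRG1 and 3 control libraries was prepared with a TruSeq v2 kit, which the labels' protocols name; such a kit does not mark strand, so reads of antisense neighbours cannot be told apart. Titles gave each library its group and number. The deposited table of the authors holds expected counts, not normalized, for 57736 genes; hg19, RSEM 1.3.0, STAR 2.5.3a, MultiQC 0.9 and FastQC 0.11.3 are listed, without roles, in the submitters' processing notes. RSEM shares reads among similar genes. A further deposited table holds log2 CPM values of 14759 genes by the authors; it lists 40 of the 41 members and was used only for this check. Which gene annotation was used is not stated in these sources.

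Rounded expected counts entered edgeR 4.0.16 under R 4.3.3 (TMM, filterByExpr, glmQLFit with the current quasi-likelihood method, no covariate); 15421 genes, with at least 99.7% of each library's counts, were tested. Calls needed a Benjamini-Hochberg adjusted p below 0.05. Standard errors (SE) of edgeR fold changes were derived as the absolute log2 fold change over the square root of the F statistic. Levels are TMM-scaled CPM; exact permutation tests used log2(CPM + 1), or log2 count ratios for pairs of genes. Symbols came from a name table for 51959 genes, and exonic lengths and overlaps from GENCODE 29 (GRCh38), where exons of other genes overlap those of 13 members. Within-group pairs of libraries differed by more than counting noise, but not equally. Chi-square per degree of freedom was 2.66 for NRG1 2 and NRG1 3, against 18.8 to 65.7 for the other within-group pairs. The functions were tested on simulated counts. The members and lists were chosen with earlier results of these data known. Values in every library are given for sensors, transcription factors, IFITM genes, members with separate groups, the extremes of each role and the 6 pathway genes with the smallest p; IFIT1, IFIT3, IFI27, IFI6, XAF1, IFI44L, PARP14, IFNL1, IFNE and IFNB1 were chosen after their values were seen. A further gene of the rule is not reported here. Alternatives were DESeq2 1.42.0, 2 other scalings, 2 other filters, limma 3.58.1 (trend and voom), a replicate block and leaving out each library; a comparison of 2 against 2 libraries, quality weights and the older edgeR dispersion method were chosen after seeing the data.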

Additional observations from a re-analysis of the deposited data

How the results depend on the processing

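The median log2 fold change of the 41 genes stayed below 0 in all 18 alternatives, at -0.82 to -0.34 when 1 library was left out. The number of the 41 genes called was 0 in most settings, but 6 in DESeq2, 1 without a low-count filter (OASL), 10 without NRG1 1 and control 3, and 16 with library quality weights. Pathway genes called were 0, but 2, 4 and 6 in DESeq2, without those 2 libraries and with quality weights. All genes called were 1 (NRG1), but 209 in DESeq2, 21 without a filter, 2 in limma-trend with either pseudocount and in limma-voom, 2 with the replicate block, 1512 without those 2 libraries, 1602 with quality weights, and 1 to 37 with 1 library left out. IFIT5 had a log2 fold change at 0, which turned positive in DESeq2 (0.0024), upper-quartile scaling (0.025), limma-trend (0.085 and 0.091), limma-voom (0.12) and the replicate block (0.083), with -0.30 to 0.34 when 1 library was left out. STAT2 ran from -0.034 to 0.31 when 1 library was left out. The cause was not tested. Deviations of same-numbered libraries were weakly correlated (0.03, 0.17 and -0.09). NRG1 1 and control 3 stood apart, so these values cannot decide whether equal numbers mark a shared batch. Single-gene values under alternatives were counted for 34 genes, which do not include SAMD9, SAMD9L or EPSTI1. Of these values, 568 kept direction and side of the threshold, 36 passed it in the same direction and 11 changed sign. With 3 libraries a group and 81 to 130 counts at 10 CPM, moderate differences could be missed.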

Other observations

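Ratios of expected counts between neighbours or relatives within a library do not depend on scaling; 12 pairs were compared, chosen after values were seen. The ratio of DDX60 to DDX60L was 6.16, 3.59 and 3.62 in NRG1 1 to 3, against 6.21, 10.1 and 11.2 in control 1 to 3, and that of RIGI to IFIH1 was 1.64, 1.29 and 1.20, against 2.33, 2.24 and 1.79. The ratio of OAS2 to OAS3 was at most 0.114 in the NRG1 libraries, against at least 0.134 in the controls. In these 3 pairs the groups did not overlap (two-sided exact permutation p = 0.1 each, the smallest possible; 0.4 adjusted over the 12 pairs). The ratio of IFIT1 to IFIT3 stayed between 0.950 and 0.986 in NRG1 libraries and between 0.851 and 1.07 in controls, although both genes were several times lower in control 3 than in the other controls. The ratio of OASL to OAS1 was 4.33, 1.27 and 1.52 in NRG1 1 to 3, against 4.52, 3.96 and 7.29 in control 1 to 3, with overlap at NRG1 1.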
